A study of Mus musculus with 24 samples.

Results

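The DNA methylation and clonal haematopoiesis genes described here are Dnmt1, Dnmt3a, Dnmt3b, Tet1, Tet2, Tet3, Asxl1, Ezh2, Kmt2a and Jak2. Accessible regions were taken as theirs when they overlapped the body of 1 of these 10 genes, or when the nearest protein-coding gene end lay within 50 kb and belonged to 1 of them. This gave 14 of the 13910 regions counted in the series. They lie in 9 genes, because no region met the rule for Dnmt3b. Tet3 and Dnmt3a hold 3 regions each, Ezh2 holds 2, and the other 6 genes hold 1 each. All 14 overlap the body of their gene, and all 14 had enough counts to be tested.

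Mouse marrow from WT donors carrying the CD45.1 cell-surface marker had been transplanted into young recipients carrying CD45.2, which were either WT or IκB–, and donor cells were recovered from leg bones 13 to 15 weeks later. Chromatin was profiled by ATAC-seq, in which the Tn5 transposase inserts sequencing adapters into open DNA, in 4 sorted subsets: blood stem cells (HSC, labelled LT-HSC) and 3 classes of multipotent progenitor, named MPP2, MPP3 and MPP4. Crossed with the 2 recipient types, these made 8 groups of 3 libraries, from 500 to 1500 sorted cells each. IκB proteins hold the transcription factor NF-κB inactive, and the labels do not describe what was changed in the IκB– line. All profiled cells were lineage-negative, Sca1-positive, cKit-high donor cells of WT genotype, so the 2 recipient types differ in the host and not in the genotype of the cells. The sort for HSC is described as lacking Flt3, CD150 and CD48, that for MPP2 as carrying CD150 and CD48, that for MPP3 as carrying CD48 without CD150, and that for MPP4 as carrying Flt3. CD150 is usually a marker that HSC carry, and the group is used here under its label. The labels do not say whether replicates came from separate animals, so p-values measure the spread between these samples, part of which may be technical.

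Methylation of cytosines in DNA is written by the DNA methyltransferases, of which Dnmt3a and Dnmt3b set new marks and Dnmt1 copies them at replication, and it is removed stepwise through oxidation by the Tet enzymes. Asxl1, Ezh2 and Kmt2a act on histones: Ezh2 is the methyltransferase of Polycomb repressive complex PRC2, Asxl1 is the partner of the deubiquitinase Bap1, and Kmt2a methylates histone H3 at active genes. Jak2 is the tyrosine kinase that carries the signals of erythropoietin, thrombopoietin and related cytokine receptors. In ageing human blood, stem cells with a mutation in DNMT3A, TET2, ASXL1 or JAK2 often expand as a clone, which is called clonal haematopoiesis. ATAC-seq reads how open the DNA of a gene is, and neither its transcript level nor its methylation.

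Of the 14 regions, 7 span an annotated RefSeq start of 7 genes (GRCm38.p6): Dnmt1, Tet2, Tet3, Asxl1, Ezh2, Kmt2a and Jak2. By comparison, 38.4% of 17491 protein-coding genes in the same promoter table had a region over at least 1 of their promoter windows, taken as the 250 bases before a start. The promoter windows of 3 genes with a covered start are shown with that of Dnmt3b, the gene without a region, so that the covered and uncovered sequences can be read side by side. Only bases upstream of the gene's own 5′ end are printed, 5′ to 3′ along the gene, on mm10 coordinates. Capitals mark matches on either strand to the GC box (GGGCGG) and to an ETS motif (CCGGAAG). The CCAAT box (CCAAT) and an NRF1 motif (CGCATGCG) were searched as well and had no match in these 4 stretches. Matches of different motifs do not overlap here, and the 2 GC boxes of Dnmt3b abut.
Jak2, chr19:29251553-29251802, plus strand: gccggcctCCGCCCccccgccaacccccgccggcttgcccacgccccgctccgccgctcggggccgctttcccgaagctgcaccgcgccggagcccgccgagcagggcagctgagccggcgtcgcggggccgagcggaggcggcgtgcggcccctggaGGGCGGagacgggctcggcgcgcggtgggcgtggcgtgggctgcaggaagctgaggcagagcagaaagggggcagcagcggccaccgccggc
Kmt2a, chr9:44881353-44881539, minus strand: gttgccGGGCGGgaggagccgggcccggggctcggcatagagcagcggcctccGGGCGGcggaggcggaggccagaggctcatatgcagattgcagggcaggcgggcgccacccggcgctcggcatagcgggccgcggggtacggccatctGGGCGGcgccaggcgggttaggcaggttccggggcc
Asxl1, chr2:153345580-153345829, plus strand: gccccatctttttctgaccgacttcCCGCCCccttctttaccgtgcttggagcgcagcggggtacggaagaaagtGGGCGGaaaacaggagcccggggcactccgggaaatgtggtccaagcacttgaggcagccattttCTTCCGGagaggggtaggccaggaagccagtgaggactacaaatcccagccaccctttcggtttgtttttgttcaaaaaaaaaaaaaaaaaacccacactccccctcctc
Dnmt3b, chr2:153649199-153649410, plus strand: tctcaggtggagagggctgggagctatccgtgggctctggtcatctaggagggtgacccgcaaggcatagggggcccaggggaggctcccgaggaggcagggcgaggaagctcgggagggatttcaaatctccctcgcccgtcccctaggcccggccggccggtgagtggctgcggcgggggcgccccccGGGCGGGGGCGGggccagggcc

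The printed stretches of Jak2, Kmt2a and Asxl1 lie wholly inside an accessible region and are 250, 187 and 250 bases long. They hold 37, 23 and 11 CpG dinucleotides, the sites at which mammalian DNA is methylated. The Dnmt3b stretch, with no region, holds 16 in 212 bases, and the full Dnmt3b window of 250 bases holds 21. Over the full windows of 250 bases, the 8 member windows that a region touches had a median of 24.5 CpG, against 19 over the 8457 covered windows of all genes and 6 over all 32851 windows. The richest was Tet2, with 51 CpG. A GC box occurred in 6 of the 8 covered member windows, in 67.9% of all covered windows and in 32.7% of all windows. The ETS letters occurred in 1 of the 8 covered member windows, in 17.1% of all covered windows and in 6.9% of all windows. The CCAAT box occurred in 3 of the 8 (Ezh2, Tet3 and Dnmt1), against 39.7% of covered and 33.8% of all windows. NRF1 letters occurred in 0 of the 8, against 4.1% of covered and 1.5% of all windows. These matches describe letters only.

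The other 7 regions lie away from every annotated start. Where a gene has several regions they are numbered in genome order. The first region of Dnmt3a (chr12:3806303-3806616) lies 364 bp upstream of a start. Region 2 (chr12:3855719-3856350) and region 3 (chr12:3870959-3871329) of Dnmt3a lie 35394 and 20415 bp upstream of the most downstream start, inside the gene body. The Tet1 region (chr10:62865242-62865483) lies 21841 bp downstream of its start. Region 1 of Tet3 (chr6:83381714-83382190) lies 59488 bp downstream of the start that region 2 (chr6:83441526-83441876) spans, and region 3 (chr6:83456400-83456727) lies 14722 bp upstream of it. The first region of Ezh2 (chr6:47594244-47594735) lies 295 bp downstream of the start, with 170 bp between it and region 2 (chr6:47594906-47595414), which spans the start. The Dnmt1 region (chr9:20952620-20953107) spans 2 of the 3 annotated Dnmt1 starts and lies 6781 bp from the most upstream one. The start regions of the other genes lie at chr3:133544154-133545272 for Tet2, chr2:153345444-153345881 for Asxl1, chr9:44881244-44881709 for Kmt2a and chr19:29251401-29251883 for Jak2. Whether the regions inside gene bodies are exonic or intronic was not assigned.

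**Figure D1:**
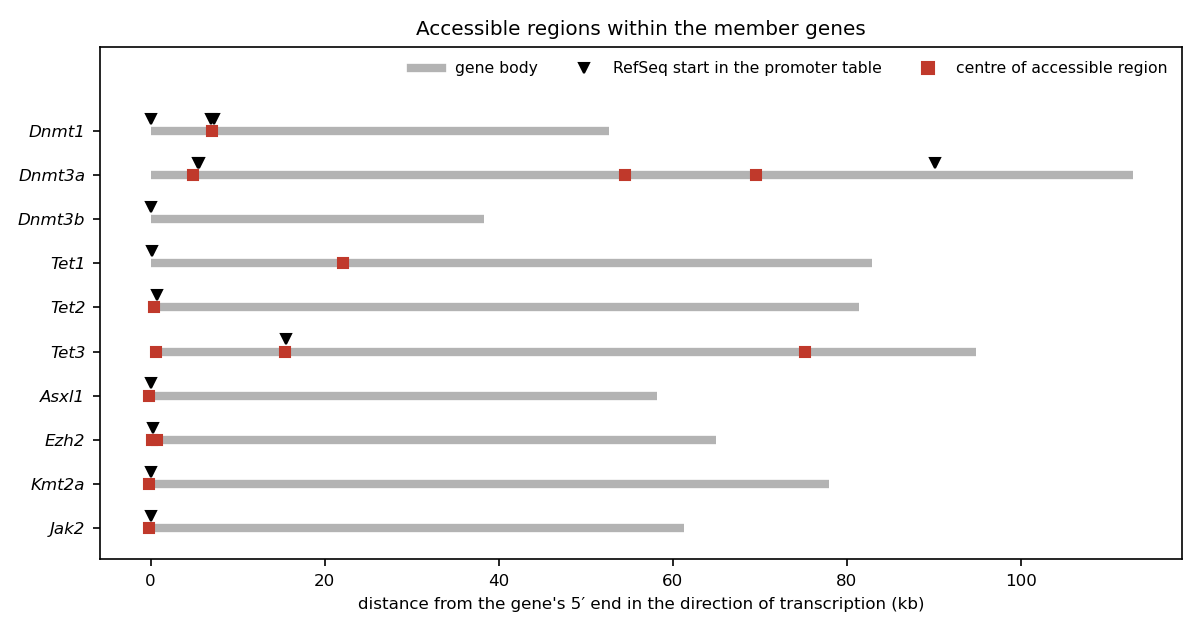
Position of the accessible regions in the 10 genes. The horizontal axis is the distance in kb from the gene's 5′ end in the direction of transcription, grey bars are gene bodies, triangles are RefSeq starts and red squares are region centres; squares sit at a start in 7 genes, inside the body in Dnmt3a, Tet1 and Tet3, and Dnmt3b has none.

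Counts per library summed to 121599 to 963699 over all regions, a 7.93-fold range, and to 118 to 1128 over the 14 member regions. Depth differed by subset: the totals were 121599 to 255584 in the HSC libraries and 292114 to 963699 in the MPP3 libraries, without overlap. The part of depth in the comparison of MPP3 with HSC was not tested. The counts of replicates 2 and 3 of WT MPP3 agreed within sampling noise, with a chi-square per degree of freedom of 1.005 and a chi-square p of 0.348. The pair was summed and treated as 1 sample, which left 23 replicates and n = 2 in that group. Replicate 3 of IκB– HSC stood apart. It scored 59.3 on the first principal component of all regions, against -45.1 and -24.5 for the other replicates of its group. It also had the highest share of counts within 1 kb of a gene end, 73.8% against 61.1% to 71.7% in the other 22 replicates. Gene-end shares averaged 67.3% in WT and 67.5% in IκB– recipients, and 67.5%, 67.0%, 69.0% and 66.3% in HSC, MPP2, MPP3 and MPP4. The mitochondrial share of the counts ran from 1.40% to 11.96% between replicates and differed by subset, with means of 8.53%, 5.59%, 3.46% and 7.01% in that order of subsets, while it averaged 6.44% in WT and 6.10% in IκB– recipients. Its part in the subset comparisons was not tested. Of the marker lists, all 7 genes of the HSC list had a region, which passed the filter on low counts in 6 of them, and its mean summed level was 437 CPM (counts scaled to a common library size) in the HSC libraries but 470, 528 and 558 CPM in the MPP2, MPP3 and MPP4 libraries, so it was not highest in the group labelled HSC. The lymphoid progenitor list, with regions in 3 of 5 genes, had means of 170 CPM in HSC and 190, 239 and 284 CPM in the progenitor classes in the same order. The myeloid list, with regions in 3 of 5 genes, ran from 169 to 2030 CPM between replicates of MPP4 alone. The megakaryocyte-erythroid list, with regions in 4 of 6 genes and none at Gata1 or Gp9, had means of 275, 291, 231 and 225 CPM in HSC, MPP2, MPP3 and MPP4. The T cell list had a region in 0 of its 5 genes, and the B cell, neutrophil, mature erythroid and stromal lists had 1 each.

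Levels were compared between regions as CPM per kb of region, since wide regions collect more counts. The median over the 14 regions was 158 CPM per kb, against 145 over all regions tested. The most accessible were the third region of Dnmt3a, with 220 ± 84.6 CPM per kb (SD, n = 23), and the start region of Kmt2a, with 219 ± 89.3. The start regions of Ezh2 (208 ± 43.5), Asxl1 (191 ± 46.8), Jak2 (180 ± 49.5) and Dnmt1 (161 ± 45.5) came next in CPM per kb. The start regions of Tet3 (160 ± 50.8) and Tet2 (157 ± 34.4) were close to the second region of Dnmt3a (154 ± 50.4). Below them in CPM per kb were the third Tet3 region (141 ± 35.2), Tet1 (125 ± 64.0), the first Tet3 region (123 ± 46.6) and the first Dnmt3a region (115 ± 49.3). Down to this point each neighbour in the order differed from the next by less than the smaller of their SDs. The exception was the last, the first region of Ezh2, with 67.6 ± 24.3 CPM per kb, which placed it at percentile 1.18 of all regions tested. The start region of Ezh2 next to it was higher per kb in 22 of 23 replicates.

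Depth at single regions was modest. Summed over all libraries, the regions collected from 203 counts at Tet1 to 1417 at Tet2. No library had a count of 0 at any of them, and 11 of 336 values were at or under 3 counts. The median SD of log2 CPM between replicates of a group was 0.43 over the 14 regions and 0.47 over all regions tested.

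**Figure D2:**
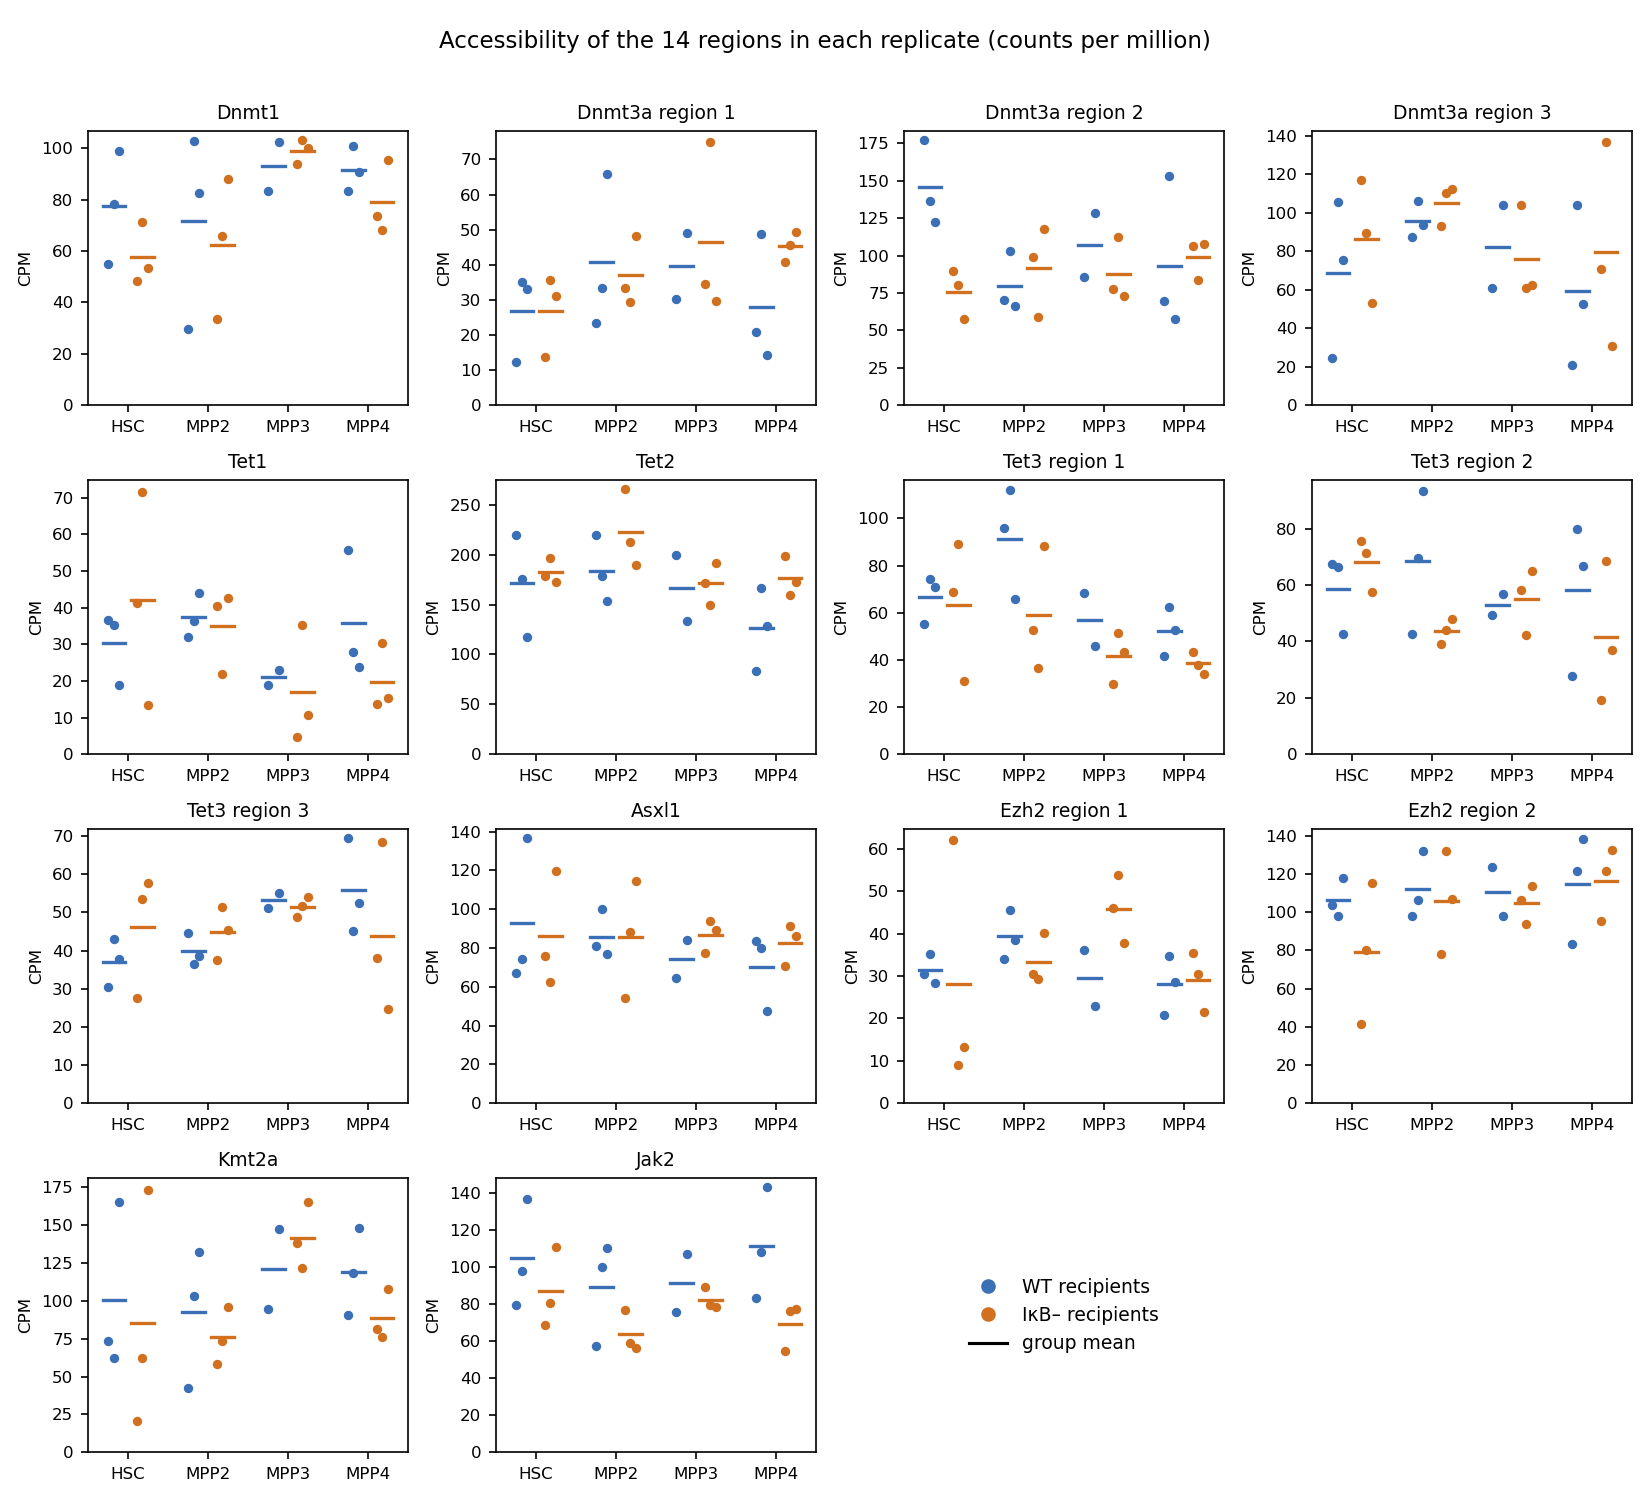
Accessibility of the 14 regions in each replicate. Each panel is 1 region, the vertical axis is CPM from 0, the horizontal axis is the subset, points are replicates of WT (blue) and IκB– (orange) recipients, and lines are group means; points of the 2 recipient types overlap in every subset except at the second Dnmt3a region in HSC, the first Ezh2 region in MPP3 and Jak2 in MPP4.

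The comparison of recipients asks whether the host in which WT donor cells lived altered their accessible chromatin. Averaged over the 4 subsets, none of the 14 regions passed the test (edgeR quasi-likelihood test, adjusted p under 0.05 by Benjamini-Hochberg over all regions tested). Over all 13325 regions tested, 231 did, which is 1.73%, with 81 higher and 150 lower in IκB– recipients. At an unadjusted p under 0.05 there were 2 members, or 14.3%, and 1908 of all regions, also 14.3%. Log2 fold changes of the members ran from -0.45 to 0.22, with 5 above and 9 below 0 and a median of -0.13, against -0.0015 over all regions tested. When the regions of a gene were summed, 0 of the 9 member genes passed, against 0.541% of 10353 genes.

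The members with the smallest p were the kinase gene Jak2 and the first region of Tet3, both with lower means in IκB– recipients. At the Jak2 start region, the 12 replicates from IκB– recipients ran from 54.4 to 111 CPM with a median of 76.8, and the 11 from WT recipients from 57.5 to 143 with a median of 100.02. The 2 sets overlap over most of the IκB– range, while the highest values belonged to WT recipients. Means were 75.5 ± 15.5 CPM (SD, n = 12) and 99.9 ± 25.5 (n = 11), and the log2 fold change was -0.37 ± 0.15 (SE, 95% interval -0.68 to -0.060, unadjusted p 0.0204, adjusted p 0.233). The Jak2 estimates for IκB– against WT in HSC, MPP2, MPP3 and MPP4 were -0.24, -0.36, -0.15 and -0.74 on the log2 scale. All 4 are below 0. In MPP4 the replicates were 54.4, 76.0 and 77.0 CPM in IκB– and 83.4, 108 and 143 CPM in WT recipients, so that the 2 groups did not overlap, as was so at 1 of the 14 members and at 11.8% of all regions tested in that subset. The MPP4 difference was -0.74 ± 0.32 (95% interval -1.38 to -0.10) with an adjusted p of 0.643, and it ran from -0.89 to -0.52 when 1 replicate was left out, with the value nearest 0 without the WT replicate at 143 CPM.

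The first Tet3 region lies inside the gene, far downstream of its annotated start. Its 12 replicates from IκB– recipients ran from 29.7 to 89.3 CPM with a median of 43.4, and the 11 from WT recipients from 41.7 to 112 with a median of 66.0. The ranges overlap, with the lowest values in IκB– recipients. Means were 50.6 ± 20.9 CPM and 67.7 ± 20.9, and the log2 fold change was -0.45 ± 0.19 (95% interval -0.83 to -0.074, unadjusted p 0.0202, adjusted p 0.232). The other Tet3 regions had log2 fold changes of -0.28 ± 0.19 at the start and -0.032 ± 0.19 at the third region. Summed over its 3 regions, Tet3 gave -0.28 ± 0.12 with an adjusted p of 0.309 over all genes, and Jak2, with 1 region, gave -0.38 ± 0.15 with 0.247.

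Among the other oxidases, Tet2 had a positive estimate. Its start region, the widest of the 14 at 1119 bp, had 188 ± 30.0 CPM in IκB– and 162 ± 43.2 in WT recipients, and a log2 fold change of 0.22 ± 0.13 (95% interval -0.039 to 0.47, adjusted p 0.450). The Tet1 region had 28.4 ± 18.9 and 32.0 ± 11.2 CPM and a log2 fold change of -0.27 ± 0.29 (adjusted p 0.737). Whether the Tet genes differ from each other in this respect was not tested. The methyltransferase genes gave no difference past the threshold either: Dnmt1, the copying enzyme, had 74.6 ± 22.2 CPM in IκB– and 82.6 ± 22.5 in WT recipients, or -0.21 ± 0.18 on the log2 scale (adjusted p 0.669). Regions 1, 2 and 3 of Dnmt3a, which sets new marks, had log2 fold changes of 0.18, -0.24 and 0.080. Region 2, the highest of the Dnmt3a regions in mean CPM, had 88.6 ± 20.2 CPM in IκB– and 106 ± 40.1 in WT recipients (SE of the log2 fold change 0.16, 95% interval -0.57 to 0.086, adjusted p 0.539). Among the histone regulators, Asxl1 had 85.3 ± 19.2 CPM in IκB– against 81.5 ± 22.6 in WT recipients, the start region of Ezh2 101 ± 26.0 against 111 ± 16.9, and Kmt2a 97.8 ± 45.3 against 107 ± 38.9. Their log2 fold changes were 0.072, -0.15 and -0.12, with adjusted p of 0.893, 0.698 and 0.860. The 95% intervals of this fit were -0.26 to 0.40 on the log2 scale for Asxl1, -0.44 to 0.14 for the Ezh2 start region and -0.54 to 0.30 for Kmt2a.

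**Figure D3:**
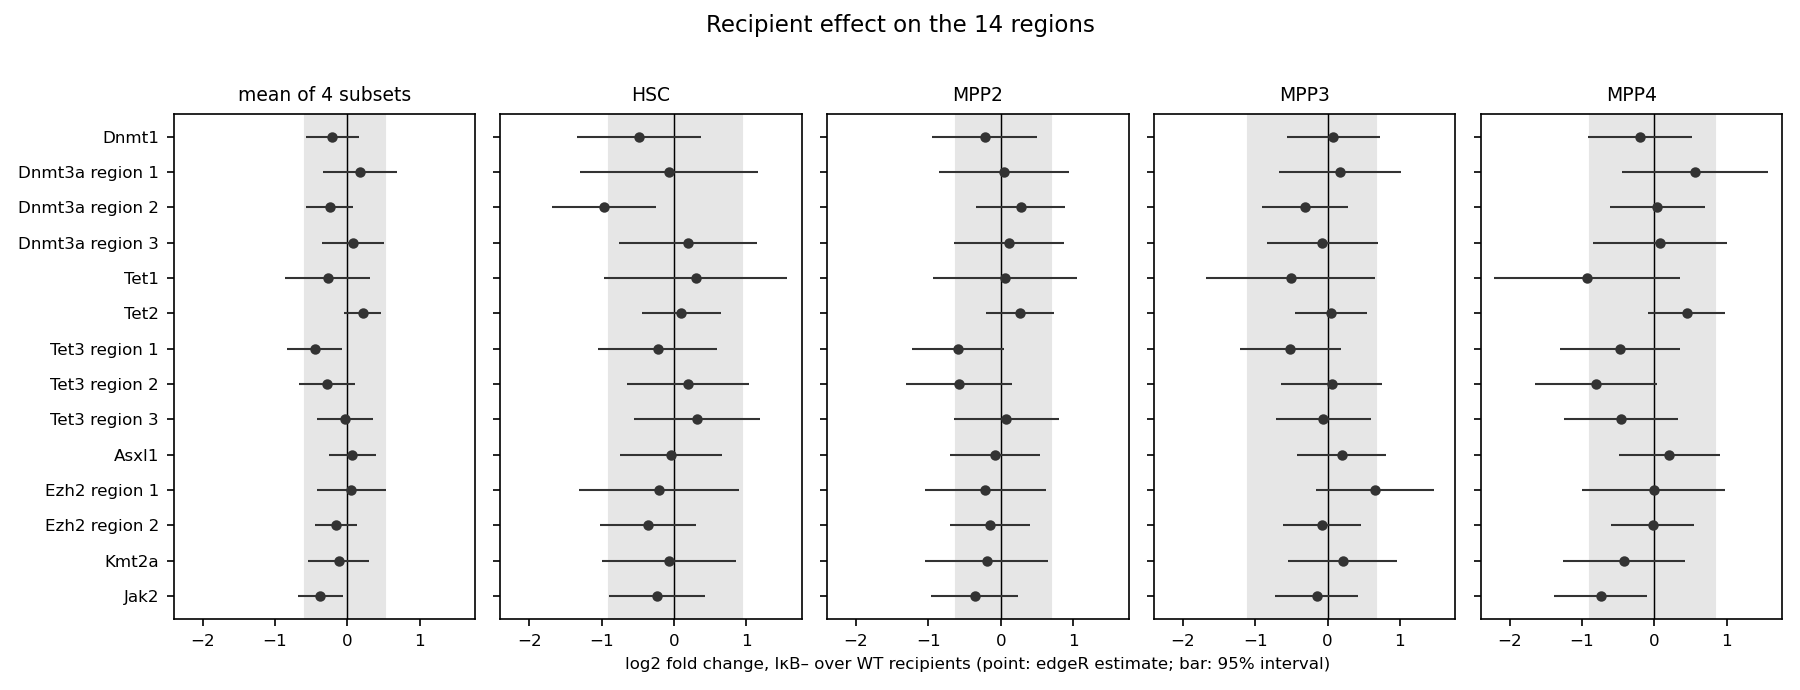
Recipient effect on the 14 regions. The horizontal axis is the log2 fold change of IκB– over WT recipients, as the mean of the 4 subsets and in each subset, points are edgeR estimates, bars are 95% intervals, and the grey band runs from the 5th to the 95th percentile of all regions tested; bars clear 0 for Jak2 and the first Tet3 region in the mean, the second Dnmt3a region in HSC and Jak2 in MPP4.

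Within single subsets the members also stayed below the threshold. In HSC, 0 of 14 members were called, against 0% of all regions, while 1 member and 841 of all regions had an unadjusted p under 0.05. The second region of Dnmt3a had the smallest p there. It had 123, 137 and 177 CPM in the 3 WT replicates and 57.7, 80.4 and 89.5 in the 3 IκB– replicates. All IκB– values were below all WT values, which was so at 1 of the 14 members, while 8.5% of all regions had no overlap between the recipient types in either direction. The log2 fold change was -0.96 ± 0.35 (95% interval -1.68 to -0.25, unadjusted p 0.00937, adjusted p 0.707), and without replicate 3 of IκB– HSC, the library that stood apart, it was -0.76 with an adjusted p of 0.696. The same region had estimates of 0.27 in MPP2, -0.31 in MPP3 and 0.042 in MPP4. The joint test of whether the recipient effect differed between subsets gave an unadjusted p of 0.0666 and an adjusted p of 0.999 for it. Over all regions that joint test called 0%, and 539 regions were under an unadjusted p of 0.05, of which 0 were members.

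In MPP2, 0 of 14 members were called, against 0% of all regions, with 0 members and 487 regions under an unadjusted p of 0.05, and the estimate with the smallest p was that of the first Tet3 region, -0.59 ± 0.32. Without replicate 3 of IκB– MPP2 it was -0.95 with an adjusted p of 0.922, and 1 member was then under an unadjusted p of 0.05. That number was 2 without replicate 1 of WT MPP2 and 1 without replicate 3 of WT MPP2. The recipient types overlapped at all 14 members in MPP2, where 11.8% of all regions had no overlap. In MPP3, 0 of 14 were called and 0 were under an unadjusted p of 0.05, against 0.21% of all regions called and 9.52% under that unadjusted p. The first Ezh2 region, which had the lowest CPM per kb of the members over all 23 replicates, had 37.9, 45.9 and 53.9 CPM in IκB– and 22.96 and 36.04 in the 2 WT samples. The IκB– values were all above the WT values at this 1 of 14 members, and 28.2% of all regions had no overlap in either direction with these 3 and 2 samples. The log2 fold change was 0.65 ± 0.40 (95% interval -0.16 to 1.47, adjusted p 0.669), and it was 0.99 or 0.35 when either WT sample was left out. In MPP4, 0 of 14 were called, against 0.045% of all regions, and Jak2, described above, was the 1 member, or 7.14%, under an unadjusted p of 0.05, against 7.1% of all regions. It was under that unadjusted p neither without replicate 3 of WT MPP4 nor without replicate 1 of IκB– MPP4, which left 0 members. limma-voom and DESeq2 also called 0 members in each comparison of recipients and of subsets. A fit with the replicate number as a block, on 24 libraries kept apart, called 0 members for recipients. That blocked fit did call members in the joint test of subsets, as given below.

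The subsets were compared next, as the mean of both recipient types. A joint test of any difference between the 4 subsets called 0 of 14 members, against 7.18% of all regions. Under an unadjusted p of 0.05 there were 2 members, or 14.3%, and 18.8% of all regions. MPP2 against HSC called 0 members and 0.03% of all regions, MPP3 against HSC 0 members and 2.57%, and MPP4 against HSC 0 members and 1.27%. The members under an unadjusted p of 0.05 in these were 0, 1 and 0, against 8.31%, 14.2% and 12% of all regions. These small numbers moved when 1 replicate was left out: 1 to 4 members for the joint subset test, 0 to 1, 0 to 3 and 0 to 3 for MPP2, MPP3 and MPP4 against HSC, 1 to 3 for the mean recipient effect, 1 to 2, 0 to 2, 0 to 1 and 0 to 3 for recipients in HSC, MPP2, MPP3 and MPP4, and 0 to 1 for the joint test of recipient by subset. The smallest p for MPP2 against HSC was at Jak2, -0.37 ± 0.22 (95% interval -0.83 to 0.080, adjusted p 0.669). It was -0.24 without replicate 3 of IκB– HSC (adjusted p 0.984) and -0.22 without replicate 1 of WT MPP2 (adjusted p 0.936). For MPP4 against HSC the smallest p was at the first Tet3 region, -0.45 ± 0.29 (95% interval -1.04 to 0.14, adjusted p 0.588), and -0.29 without replicate 2 of IκB– HSC. After summing regions by gene, 0 of 9 member genes were called, against 2.62% of genes. At all 14 members the replicates of MPP2, MPP3 and MPP4 overlapped those of HSC, and over all regions 0.473%, 1.64% and 0.75% had no overlap.

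The smallest p for subsets in the main fit belonged to the first Tet3 region, with an unadjusted p of 0.0130 and an adjusted p of 0.119. It averaged 75.3 ± 28.4 CPM in MPP2 and 64.9 ± 19.9 in HSC, against 47.7 ± 14.02 in MPP3 and 45.4 ± 10.5 in MPP4 (n = 5 for MPP3 and 6 for the others). Its replicates ran from 31.1 to 89.3 CPM in HSC and from 33.9 to 62.6 in MPP4, so HSC values lay on both sides of the MPP4 range. Tet1 followed with an unadjusted p of 0.0448 and an adjusted p of 0.250. Its replicates had 13.3 to 71.5 CPM in HSC with a median of 35.9, and 4.78, 10.8, 18.97, 22.96 and 35.1 CPM in MPP3. The estimate for MPP3 against HSC was -0.91 ± 0.43 (95% interval -1.78 to -0.041, adjusted p 0.322), at a region with as few as 3 counts in some libraries. Without replicate 2 of IκB– MPP3, which had the highest of the 5 MPP3 values, the joint test passed for Tet1, with an adjusted p of 0.0222, and the estimate for MPP3 against HSC was -1.44 with an adjusted p of 0.0562. Without replicate 1 of IκB– MPP3 it was -0.55 with an adjusted p of 0.637.

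The Dnmt1 and Kmt2a start regions had their highest means in MPP3. For Dnmt1 the 5 MPP3 replicates ran from 83.5 to 103 CPM, those of HSC from 48.2 to 99.0, those of MPP2 from 29.8 to 103 and those of MPP4 from 68.4 to 101. The MPP3 values were tightly grouped, while those of MPP2 spanned the range. MPP3 against HSC gave 0.52 ± 0.26 (95% interval -0.0053 to 1.05, adjusted p 0.357), and the joint test an adjusted p of 0.269. For Kmt2a the HSC replicates were 62.5, 73.4 and 165 CPM in WT and 20.7, 62.5 and 173 in IκB– recipients. The SD of 78.7 CPM in IκB– HSC was the largest of any group at any member. The highest HSC value in each recipient type came from the library with the highest gene-end share of its group, 70.2% in WT and 73.8% in IκB–, and the part of that share in the Kmt2a values was not tested. The MPP3 values of Kmt2a were 94.8, 122, 138, 147 and 165 CPM, and MPP3 against HSC gave 0.42 ± 0.29 (95% interval -0.17 to 1.01, adjusted p 0.574), and the joint test an adjusted p of 0.376. Without replicate 3 of IκB– HSC, this estimate became 1.07 with an adjusted p of 0.0264, and the joint test passed at Kmt2a with an adjusted p of 0.0208 and at the first Tet3 region with 0.0366. The estimate was 0.72 without replicate 3 of WT HSC, 0.25 without the summed WT MPP3 sample and 0.20 without replicate 1 of IκB– HSC, with adjusted p of 0.246, 0.881 and 0.824. In all 7 groups with 3 replicates, the library numbered 3 had the highest Kmt2a value of its group, and also the highest score on the first principal component, so the high values are not limited to that 1 library.

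**Figure D4:**
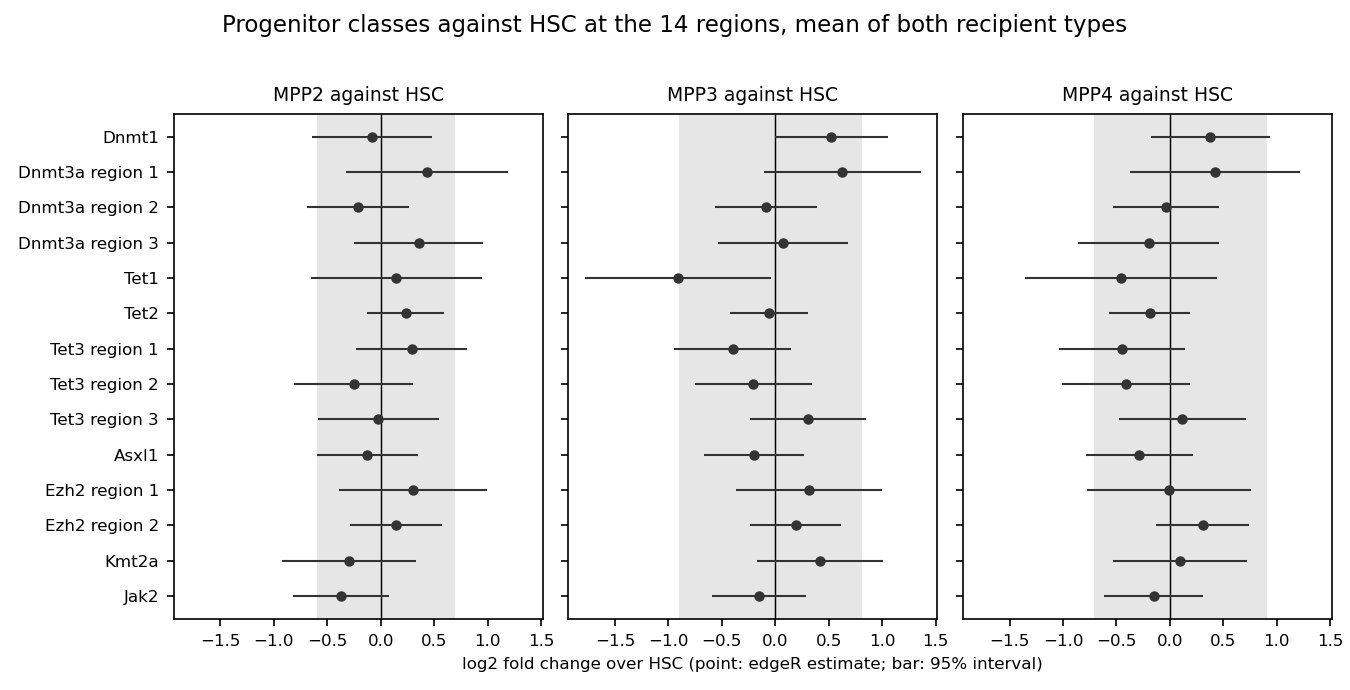
Progenitor classes against HSC at the 14 regions. The horizontal axis is the log2 fold change over HSC, as the mean of both recipient types, points are edgeR estimates, bars are 95% intervals, and the grey band runs from the 5th to the 95th percentile of all regions tested; the Tet1 bar for MPP3 against HSC is the only one that clears 0.

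The other members had larger p-values. In HSC, MPP2, MPP3 and MPP4, Tet2 averaged 177 ± 33.9, 203 ± 38.6, 169 ± 27.8 and 152 ± 40.3 CPM (joint test, adjusted p 0.403). Asxl1 averaged 89.4 ± 31.0, 85.8 ± 20.7, 81.8 ± 11.4 and 76.6 ± 15.7 CPM in the same order (adjusted p 0.880). The second region of Dnmt3a averaged 111 ± 43.5, 85.7 ± 23.8, 95.4 ± 24.1 and 96.2 ± 34.2 CPM (adjusted p 0.924). The start region of Ezh2 averaged 92.8 ± 28.6, 109 ± 20.8, 107 ± 11.9 and 115 ± 21.6 CPM (adjusted p 0.817). Jak2 averaged 95.7 ± 25.1, 76.4 ± 23.5, 86.0 ± 12.8 and 90.3 ± 31.1 CPM (adjusted p 0.724). The 95% intervals for progenitor class against HSC were narrowest at Tet2, -0.13 to 0.59 in MPP2, -0.43 to 0.31 in MPP3 and -0.57 to 0.19 in MPP4.

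The partners of the members were read through 5 gene lists. The DNA methylation partners had regions in 15 of 18 genes. Of their 21 regions, 0 passed for recipient, against 1.73% of all regions. For subset 1 passed, or 4.76% against 7.18% of all regions, at Trim28, a corepressor that recruits chromatin-silencing enzymes. Trim28 averaged 168 and 174 CPM in MPP3 and MPP4, and 122 and 119 CPM in HSC and MPP2 (adjusted p 0.0323), and passed in 20 of 30 alternative settings. The Polycomb and ASXL1-BAP1 partners (25 regions in 18 of 23 genes) and the KMT2A complex and its relatives (15 tested regions, in 11 of 14 genes with a region) had 0 calls for recipient and 0 for subset. The shares over all regions were 1.73% and 7.18%, so few calls would come from lists of this size at those rates. The median log2 fold change for recipient was 0.010 in the methylation list, 0.068 in the Polycomb list and -0.10 in the KMT2A list, against -0.0015 over all regions.

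The JAK2 signalling list had regions in 15 of 19 genes. Of its 19 tested regions, 1, or 5.26%, was higher in IκB– recipients, against 1.73% of all regions called in either direction. It lies at Il3ra, the alpha chain of the interleukin-3 receptor, with 196 CPM in IκB– and 138 in WT recipients and a log2 fold change of 0.48 ± 0.13 (adjusted p 0.0413). This call was kept in 16 of 30 alternative settings, with an adjusted p of up to 0.125, reached without replicate 3 of IκB– MPP4. For subset, 3 of the 19 passed, or 15.8% against 7.18% of all regions: Csf3r, the receptor of granulocyte colony-stimulating factor, Ptpn11, the phosphatase Shp2, and Cish, an inhibitor of cytokine signalling. The regions of Csf3r and Ptpn11 had higher means in MPP3 and MPP4 (27.7 and 23.6 CPM, and 45.1 and 50.2) than in HSC (9.20 and 24.8). The Ptpn11 region lies outside gene bodies, and the Csf3r mean in HSC stands for only a few counts per library. Cish had lower means in MPP3 and MPP4 (28.4 and 34.8 CPM) than in HSC (53.5). The Ptpn11 call was kept in 29 of 30 settings, those at Csf3r and Cish in 11 of 30 each.

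Other genes mutated in clonal haematopoiesis had regions in 28 of 30 genes. Of their 49 regions, 0 passed for recipient, against 1.73% of all regions, and 6 passed for subset, or 12.2%, against 7.18% of all regions. The blood transcription factor genes Etv6, Cebpa and Runx1 passed the joint test in 30 of 30 alternative settings. A region inside Etv6 had 42.3 CPM in HSC and 10.1 in MPP3, a log2 fold change of -1.98 ± 0.39 (adjusted p 0.00165). A region inside Runx1 had 76.6 and 35.0 CPM, or -1.01 ± 0.25 (adjusted p 0.0159). That MPP3 call held in 27 of 30 settings and had an adjusted p of 0.0860 without replicate 3 of IκB– HSC. A region at Cebpa, the driver of granulocyte differentiation, was higher, with 38.2 CPM in HSC, 96.3 in MPP3 and 88.8 in MPP4. Its log2 fold changes were 1.25 ± 0.25 (adjusted p 0.00180) and 1.15 ± 0.26 (adjusted p 0.0176). The MPP3 call at Cebpa held in 30 of 30 settings and the MPP4 call in 28 of 30, with an adjusted p of 0.0703 in limma-voom. A region inside the receptor gene Flt3, whose protein defines the MPP4 sort, passed the joint test (adjusted p 0.0435). It was the only one called of the 3 Flt3 regions. Its highest mean was in MPP4, 61.8 CPM against 28.6 in HSC, but it was not called for MPP4 against HSC. A region at the splicing factor gene U2af1 and a region near Phf6, outside gene bodies, also passed the joint test, with adjusted p of 0.0243 and 0.0348. Calls at Flt3, U2af1 and Phf6 were kept in 13, 27 and 19 of 30 settings.

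Across the 23 replicates, the 9 member genes had no shared pattern. Pearson's r of log2 CPM, summed by gene, ran from -0.59 for Tet2 with Jak2 to 0.65 for Dnmt1 with Kmt2a over the 36 pairs, with a median of 0.024. These points share library, depth and normalization, and the values are descriptions. Compared with 1914 well-covered genes, Kmt2a was most like Ube2g1 (r 0.88) and Zfp217 (0.85), Tet2 most like Rapgef2 (0.81) and Ufl1 (0.78), and Dnmt1 most like Garnl3 (0.79) and Trim28 (0.75). Jak2 was most like Mms19 (0.76) and Sertad2 (0.68), Tet1 most like Gm35315 (0.77) and E330021D16Rik (0.76), and Tet3 most like St3gal1 (0.73) and Stard4 (0.70). Dnmt3a was most like Trio (0.72) and Herpud2 (0.67), and Ezh2 most like Msl2 (0.72) and Ccdc171 (0.71). Asxl1 had the lowest best match, 0.61, with Hnrnpul2 and Ttc9c, which had the same r.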

How the data were processed

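ATAC-seq of 24 libraries was deposited by the authors as a table of raw counts per region, whole numbers that are not normalized. The submitters' processing notes name Bowtie2, SAMtools, Picard, MACS2 2.1.0, deepTools and the build mm10, with no role or order. How regions were chosen, duplicates removed, Tn5 offsets set and reads counted is not given in the sources used here, so their effect on levels could not be examined. Columns marked KO and LT were read as IκB– and HSC.

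Regions were joined to genes, starts and promoter windows of RefSeq tables (GRCm38.p6, the same assembly). Counts were tested with edgeR 4.0.16 in R 4.3.3: TMM scaling, filterByExpr by group (13325 regions kept), a robust quasi-likelihood fit of 8 group means over 23 replicates, and Benjamini-Hochberg adjustment over all regions or, for gene sums, 10353 genes. CPM use TMM-scaled library sizes, and 95% intervals come from the fit. The first principal component is of log2 CPM. Scripts were tested on simulated data. Alternatives were limma-voom 3.58.1, DESeq2 1.42.0, other scalings, a replicate block, no filter, a window of 10 kb and leaving out each replicate.

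All 10 genes are named. For each gene with a region, the region with the highest mean CPM and the regions with the smallest p per comparison are described with their values, and for likeness the 2 genes with the highest r. The genes and lists were chosen with earlier results of these data known.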

Additional observations from a re-analysis of the deposited data

How the results depend on the processing

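In 359 of 366 combinations of a comparison and an alternative, 0 members were called. Leaving out 1 replicate at a time gave 0 to 2 member regions for the joint subset test, 0 to 1 for MPP3 against HSC and 0 to 1 member genes for the gene-summed subset test. Those calls came without replicate 3 of IκB– HSC or replicate 2 of IκB– MPP3, and fewer samples entered those fits. The labels do not say that a shared replicate number marks a shared source, and pairing was not assumed. Deviations of same-numbered libraries correlated with r from -0.0509 to 0.405 (mean 0.138, 52 of 84 pairs over 0.1). Between libraries of other numbers r ran from -0.332 to 0.128, with 2 of 168 pairs over 0.1. By mean r, 24 of 24 libraries correlated best with their own number. The library numbered 3 scored highest on the first principal component in 7 of 7 groups of 3. The main fit does not include this structure by replicate number. The blocked fit kept all 24 libraries apart, since the summed WT MPP3 sample has no single number, so it changes 2 choices at once; libraries kept apart without the block gave 0 member calls in each comparison. With the replicate block, on 24 libraries kept apart, the subset test called 3 member regions (adjusted p 0.00301 at Kmt2a, 0.0180 at Dnmt1, 0.0226 at the first Tet3 region) and 2 member genes, and 0 members in the other comparisons.

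Mean recipient effects changed sign at 5 regions near 0. Without 1 replicate, log2 fold changes ran from -0.024 to 0.17 at Asxl1, from -0.24 to 0.18 at the first Ezh2 region (-0.045 with limma-voom), from -0.11 to 0.042 at the third Tet3 region, from -0.43 to 0.032 at Kmt2a and from -0.025 to 0.26 at the third Dnmt3a region. With the same sign, they ran from -0.54 to -0.095 at Tet1, -0.33 to -0.082 at Dnmt1, 0.076 to 0.38 at the first and -0.30 to -0.077 at the second Dnmt3a region, -0.27 to -0.077 at the start region of Ezh2 and -0.37 to -0.17 at that of Tet3.

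Counts over all regions moved more. For recipients in MPP3 there were 28 calls, against 80 with the 24 libraries kept apart, 357 with the block on those 24 libraries (as in each blocked count here) and 183 with limma-voom. In MPP4 there were 6, against 1 with DESeq2, its size factors or loess offsets and 0 with limma-voom. The mean recipient effect had 231, against 147 with DESeq2 and 481 with the block, and the interaction 0 against 6 with the block. The subset test had 957, against 529 with limma-voom and 1938 with the block. With the block on 24 libraries, calls for MPP2, MPP3 and MPP4 against HSC went from 4, 343 and 169 to 31, 817 and 406, and limma-voom gave 44 for MPP4. Gene sums had 56 calls for recipient, against 92 with libraries apart and 249 with the block, and 271 for subset, against 1116. Without 1 replicate, the mean recipient effect had 53 to 442 calls, the subset test 623 to 1478, MPP2, MPP3 and MPP4 against HSC 1 to 21, 175 to 796 and 59 to 287, recipients in MPP3 0 to 144, and gene sums 14 to 149 and 150 to 620. The window of 10 kb gave the same 14 regions. Member regions held 203 to 1417 counts, and the printed 95% intervals hold for the main fit only. For Kmt2a in MPP3 against HSC the interval was -0.17 to 1.01, and the estimate was 1.07 without replicate 3 of IκB– HSC.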
